A study of Mus musculus with 63 samples.

Results

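The EGF family ligands described here are Egf, Tgfa, Epgn, Hbegf, Btc and Ereg, taken as every probe that the array's gene table gives one of these 6 symbols. They account for 7 of the 28049 probes, 1 for each gene and 2 for Ereg, which are called Ereg-a and Ereg-b in the order of their probe numbers. The 20925 probes with 1 symbol cover 14541 genes in all. The ligands were followed over 13 groups of mouse keratinocytes measured on 63 arrays, which give 62 samples.

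EGF family ligands are made as membrane-anchored precursors at the cell surface. Metalloproteases of the ADAM group cut them free, and the released ligand binds ErbB receptors, which pair and switch on the Ras and ERK kinase pathway. Egf, Tgfa and Epgn (epigen) bind the EGF receptor, EGFR, whereas Hbegf, Btc (betacellulin) and Ereg (epiregulin) bind both EGFR and ErbB4. In epidermis, keratinocytes make several of these ligands and respond to them, and oncogenic Ras is known to raise ligand production in keratinocytes.

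The cells were keratinocytes from the skin of newborn CD-1 mice, either EGFR wild type (WT) or EGFR knockout (KO). Some received v-rasHa, an oncogenic viral Ras, through diluted supernatant of Psi-2 producer cells and stayed in culture for 4 days, and the others were mock treated. Some were given 1 µM AG1478, Erlotinib (Tarceva) or PD153035, each an inhibitor of the EGFR kinase, for 2 h. The groups were WT mock (n = 4), WT mock with AG1478, Erlotinib or PD153035 (n = 5 each), WT ras (n = 5), WT ras with AG1478, Erlotinib or PD153035 (n = 5 each), KO mock (n = 3), KO ras (n = 5) and KO ras with AG1478 (n = 6), Erlotinib (n = 4) or PD153035 (n = 5). KO mock cells with an inhibitor were not analysed here. The WT mock groups with an inhibitor were also in culture for 4 days. For WT mock and KO mock without inhibitor the culture time is not given. Values are log2 ratios of the sample to a common reference RNA pooled from 11 mouse cell lines, so 0 means the level of the reference and ratios of different probes cannot be set against each other. Probe positions on the transcripts and the kind of Egfr deletion are not given in the sources used here.

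On 2 arrays the direction of the ratio went against the dye label. The sign of each ratio was set, so that it reads sample over reference, by how an array correlated with the median forward-labelled array, and this correlation was -0.83 for KO ras with AG1478 replicate 3, labelled forward, and 0.805 for replicate 4, labelled reversed. Results that rest on that group are given with and without both arrays. The arrays also fall into 8 runs of consecutive experiment numbers, whose meaning the labels do not give. WT ras and all mock WT groups are in runs 1 and 2. KO ras replicates 1 to 3 are in run 3, and KO mock alone is in run 4. The Erlotinib arrays of ras cells are in runs 5 and 6, along with KO ras replicate 5 (run 5) and replicate 4 (run 6). WT ras with AG1478 replicates 1, 2 and 5 are in run 7, and all other ras arrays with AG1478 or PD153035 are in run 8.

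The keratinocyte markers Krt5, Krt14 and Trp63 were above the reference in all 62 samples. The mean of 22 keratinocyte markers lay between 2.74 and 3.98 in the 13 groups, while the means of 13 fibroblast, 12 leukocyte and 7 endothelial markers were below 0 in every group. The 6 melanocyte markers had group means from 1.83 to 3.13, and Dct, a melanin enzyme, was above 0 in all 62 samples. In such mixed RNA, fewer cells of a type and less RNA per cell cannot be told apart. Both Egfr probes failed to separate the genotypes: one averaged 2.52 in WT mock and 1.99 in KO mock, and the other averaged 1.86 and 0.70. Since it is not known whether these probes lie in the deleted part, they check no genotype label.

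Epgn, Ereg and Btc are neighbours on mouse chromosome 5 in the GRCm38.p6 annotation, with 0 protein-coding genes between Epgn and Ereg and 1 between Ereg and Btc. Tgfa lies on chromosome 6 and Egf on chromosome 3. RefSeq upstream windows were matched by symbol for 4 of the 6 genes, Egf, Epgn, Btc and Tgfa. Btc was lower in KO ras with PD153035 than in WT ras with PD153035 and than in KO ras with Erlotinib. The 250 bases before the annotated start are shown for Btc and for Tgfa, a ligand that rose with v-ras in WT cells. They were searched on both strands for the AP-1 motif TGACTCA, which binds Fos and Jun proteins, for the GC box GGGCGG, which binds Sp1, and for the CArG box of serum response factor, and matches are in capitals. These windows lie at chr6:86194972-86195221 on the plus strand for Tgfa and chr5:91402995-91403244 on the minus strand for Btc.
Tgfa: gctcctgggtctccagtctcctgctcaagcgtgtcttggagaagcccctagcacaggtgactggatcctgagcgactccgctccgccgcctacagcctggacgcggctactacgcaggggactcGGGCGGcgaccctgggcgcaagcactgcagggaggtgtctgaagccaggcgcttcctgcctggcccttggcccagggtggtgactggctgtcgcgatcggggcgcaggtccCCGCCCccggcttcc
Btc: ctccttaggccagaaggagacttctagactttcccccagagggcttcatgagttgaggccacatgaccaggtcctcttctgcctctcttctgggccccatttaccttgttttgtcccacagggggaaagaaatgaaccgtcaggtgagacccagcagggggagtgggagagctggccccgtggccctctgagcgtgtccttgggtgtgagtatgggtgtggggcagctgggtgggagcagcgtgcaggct

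The Tgfa window held 2 GC boxes, from base -126 to -121 and, on the other strand, from -15 to -10 before the start, and its GC content was 69.2%. The Btc window had a GC content of 59.6% and held 0 matches to the 3 motifs. Of 32851 windows of the same length, 4.46% held the AP-1 motif, 32.7% the GC box and 1.47% the CArG box. A match is a description of letters only, and these windows were not assayed.

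The ligands differed in how they stood to the reference and in how much they varied. The plot of all 7 probes by sample shows these levels.

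**Figure D1:**
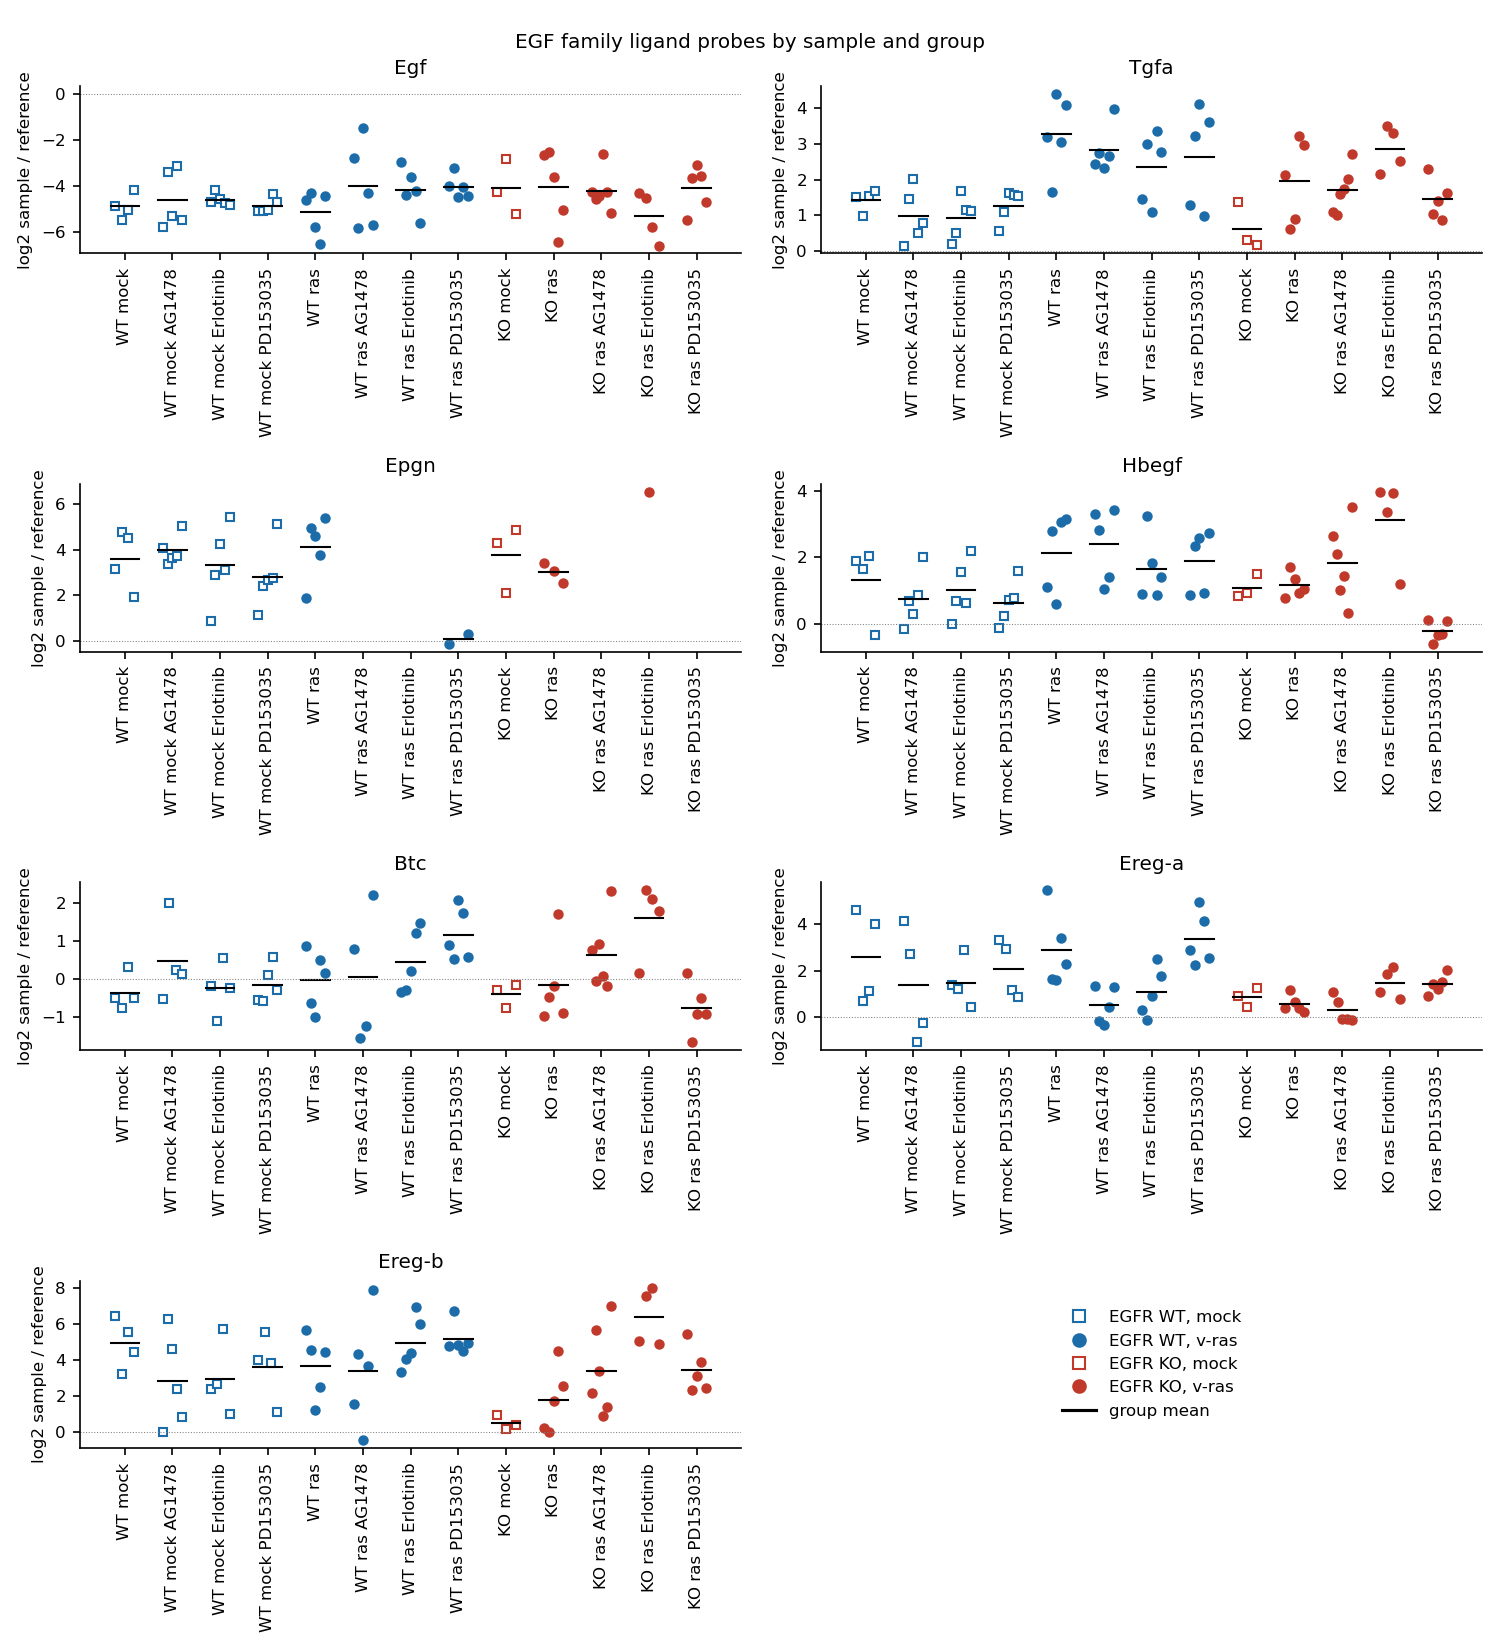
Log2 ratio of sample to reference (y axis) of each ligand probe in every sample, by group (x axis); squares are mock and circles v-ras samples, blue is EGFR WT and red EGFR KO, and bars are group means. Egf lies below 0 throughout, Tgfa is higher in the WT ras groups than in the WT mock groups, and Hbegf is lowest in KO ras with PD153035 (mean -0.21).

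Egf, the founding ligand of the family, was below the reference in every sample. Its group means ran from -5.29 in KO ras with Erlotinib to -4.01 in WT ras with AG1478, a range of 1.27 against a median within-group SD of 0.963. No gap between neighbouring groups in this order exceeded the larger SD of the pair. Egf passed in 0 of 35 comparisons, with a smallest adjusted p of 0.292 (limma, Benjamini-Hochberg adjustment over all probes tested).

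Epgn had a value on all 31 arrays of runs 1 to 4 and on only 3 of the 32 arrays of runs 5 to 8. Of all 28049 probes, 11 (0.0392%) had every value in runs 1 to 4 and at most 3 in runs 5 to 8. It could therefore be tested in 12 of 35 comparisons, none of them with an inhibitor in ras cells. In groups with 3 or more values, Epgn stood above the reference in every sample, with group means from 2.83 in WT mock with PD153035 to 4.12 in WT ras. On the 3 arrays of runs 5 to 8, Epgn was -0.12 and 0.31 in WT ras with PD153035 and 6.54 in KO ras with Erlotinib. In WT mock its values were 3.17, 4.79, 4.51 and 1.92, and in WT ras 1.90, 4.94, 4.62, 3.75 and 5.38, so the groups overlapped. It passed in 0 of the 12, with 0 at an unadjusted p under 0.05 and a smallest adjusted p of 0.522.

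Over all 7 ligand probes, 7 of 222 tests passed an adjusted p of 0.05, 4 higher and 3 lower, in 5 of the 35 comparisons. That is 3.15% of the member tests, beside 1.25% of all 973573 probe tests in the same comparisons. Unadjusted p-values under 0.05 numbered 43 of 222 (19.4%), beside 12.1% of all probe tests, a share that ran from 1.15% to 22.2% over the comparisons. Called values came from Hbegf (3), Btc (2), Tgfa (1) and Ereg-a (1). All the Hbegf and Btc calls involve the same KO ras samples with PD153035, so they are not separate results.

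The first comparison asks how v-ras changes ligand expression. Tgfa, a ligand that EGFR alone binds, was higher in WT ras cells than in WT mock cells in all 4 settings, by 1.37 to 1.85 on the log2 scale, or 2.58- to 3.61-fold. Without inhibitor, Tgfa was 1.50, 0.99, 1.53 and 1.68 in WT mock and 3.19, 1.64, 4.41, 3.05 and 4.08 in WT ras. All but the 1.64 of WT ras replicate 2 lay above every mock sample. The difference was 1.85 ± 0.55 (SE; 95% interval 0.76 to 2.95), with an unadjusted p of 0.00128 and an adjusted p of 0.314 (limma), in a comparison where 0.183% of all probes passed. Within run 1 the mean was 1.25 in 2 mock samples and 4.08 in the 1 ras sample, and within run 2 it was 1.61 in 2 mock and 3.07 in 4 ras samples. WT mock replicate 1, counted in run 1 here and in the block fits, averages a run 1 array (1.59) and a run 2 array (1.41), so the first mean is not wholly within its run. With run as a fixed block the difference was 1.71 (adjusted p = 0.239, limma).

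With AG1478, Tgfa rose. It was 0.15, 1.46, 2.01, 0.51 and 0.79 in WT mock and 2.43, 2.74, 2.32, 2.67 and 3.98 in WT ras, and the groups did not overlap. The difference was 1.84 ± 0.51 (adjusted p = 0.0243, limma), where 5.16% of all probes passed. Of 13 fibroblast markers 2 were lower with v-ras there, Col5a1 (-1.14) and Pdgfrb (-1.09), and their part was not tested. This call was lost with run as a random block (1.95, adjusted p = 0.224) and with either WT ras with AG1478 replicate 5 (1.56, adjusted p = 0.0921) or WT mock with AG1478 replicate 1 (1.63, adjusted p = 0.0844) left out.

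With Erlotinib, Tgfa was 0.21, 0.50, 1.69, 1.16 and 1.13 in WT mock and 1.47, 3.00, 1.09, 3.37 and 2.78 in WT ras, a difference of 1.40 ± 0.51 (adjusted p = 0.0996, limma; 5.25% of all probes passed). With PD153035 it was 0.55, 1.08, 1.64, 1.56 and 1.55 in WT mock and 1.30, 3.21, 4.12, 0.98 and 3.61 in WT ras, a difference of 1.37 ± 0.51 (adjusted p = 0.225, limma; 1.19% of all probes passed). In both settings 3 of 5 ras samples lay above every mock sample. These 4 differences share no samples. With each inhibitor the WT mock and WT ras arrays share no run. Run and v-ras cannot be told apart there except through a random block.

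Hbegf, a heparin-binding ligand, also stood higher in WT ras than in WT mock in each setting, by 0.64 to 1.66, with none of the 4 differences passing. The largest was with AG1478 (1.66 ± 0.55, adjusted p = 0.0645, limma). There the WT ras values were 3.30, 2.81 and 3.42 in run 7 and 1.03 and 1.41 in run 8, so the runs did not overlap. The WT mock values with AG1478 were -0.16, 0.70, 0.28, 0.86 and 2.00. The difference passed without WT mock with AG1478 replicate 4 or 5 or WT ras with AG1478 replicate 3 (adjusted p = 0.0493, 0.0386 and 0.0211, limma).

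**Figure D2:**
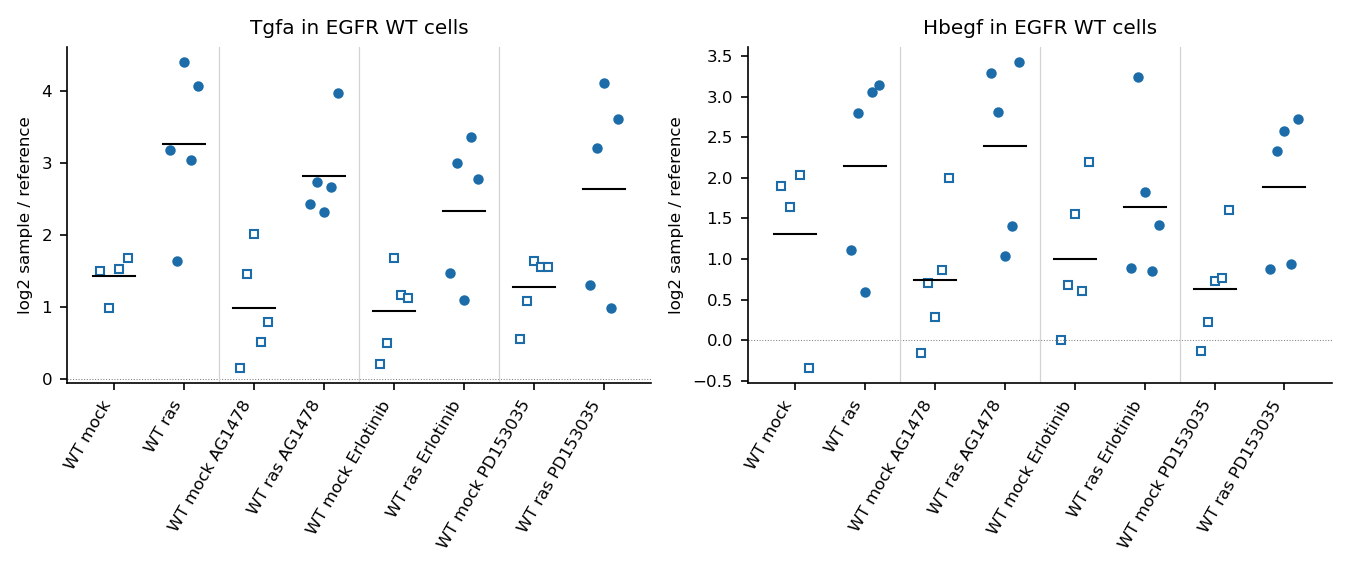
Log2 ratio of sample to reference (y axis) of Tgfa (left) and Hbegf (right) in EGFR WT cells, with mock (open squares) and v-ras (filled circles) groups side by side for no inhibitor, AG1478, Erlotinib and PD153035 (x axis); bars are group means. The Tgfa mean is 1.43 in WT mock and 3.27 in WT ras, and it is higher with v-ras in all 4 pairs.

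The mean of the 4 v-ras effects in WT cells, a comparison added after these values were seen, was 1.62 ± 0.26 for Tgfa (95% interval 1.09 to 2.14, adjusted p = 8.93e-06, limma), a 3.07-fold increase. For Hbegf it was 1.10 ± 0.28 (adjusted p = 0.0039, limma). In this comparison 16.2% of all probes passed, 10.5% as higher, and 2 of the 6 member probes tested did so. Mock and ras samples share a run only in the setting without inhibitor. In the other settings run and v-ras cannot be told apart except through a random block. With run as a random block Tgfa stayed past the threshold (1.63, adjusted p = 0.0118) and Hbegf did not (1.19, adjusted p = 0.136). The means for Btc (0.52), Egf (0.41) and the Ereg probes (0.08 for Ereg-a and 0.72 for Ereg-b) did not pass. In the same comparison 2 of 22 keratinocyte markers rose and 3 fell, and 1 of 13 fibroblast markers rose and 4 fell; their part in the ligand values was not tested.

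In KO cells v-ras left no member past the threshold, where 0.539% of all probes passed. Tgfa was 1.36, 0.32 and 0.16 in KO mock and 2.12, 0.62, 0.90, 3.21 and 2.96 in KO ras, a difference of 1.36 ± 0.60 (adjusted p = 0.594, limma). The 2 highest KO ras values came from runs 6 and 5, and the other 3 from run 3. KO mock lies alone in run 4, so run and v-ras cannot be told apart here except through a random block. Between genotypes 0.0108% of all probes passed for the v-ras effect, and the effect on Tgfa in KO minus that in WT was -0.49 ± 0.81 (95% interval -2.11 to 1.13, adjusted p = 0.964, limma).

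The second comparison asks what loss of EGFR does. In mock cells no member passed, where 1.11% of all probes did. Ereg, a ligand made in response to growth signals, showed the largest difference on Ereg-b. It read 6.45, 3.24, 5.58 and 4.45 in WT mock and 0.96, 0.21 and 0.43 in KO mock, without overlap. The difference was -4.32 ± 1.40 (95% interval -7.12 to -1.52, adjusted p = 0.0928, limma). It passed with both WT mock repeat 1 arrays kept apart (-4.57, adjusted p = 0.0495), with quantile normalization (-4.51, adjusted p = 0.046) and with array weights (-5.05, adjusted p = 0.00173), and its adjusted p was 0.591 with run as a random block. Of 22 keratinocyte markers 3 were higher in KO mock, Krt14 (3.09), Krt15 (3.13) and Krt10 (2.37). The fibroblast mean was -0.46 in KO mock (-0.59 to -0.35) and -1.50 in WT mock (-1.68 to -1.27), and the part of either in the Ereg value was not tested. The other probe, Ereg-a, was 4.59, 0.72, 1.12 and 3.98 in WT mock and 0.94, 0.44 and 1.24 in KO mock, and these groups overlapped (-1.71 ± 0.87, adjusted p = 0.29, limma).

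In ras cells without inhibitor 1.92% of all probes passed between genotypes and no member did. On Ereg-a, WT ras read 5.44, 1.66, 1.60, 3.40 and 2.29, and KO ras 0.42, 1.19, 0.67, 0.41 and 0.22. Every KO sample was below every WT sample, and the difference was -2.29 ± 0.72 (adjusted p = 0.0769, limma). Tgfa was lower in KO ras by a difference of -1.31 ± 0.51 (95% interval -2.34 to -0.28, adjusted p = 0.166, limma), with overlapping samples. Hbegf differed by -0.98 ± 0.55 and Btc by -0.14 ± 0.52, neither passing. WT ras and KO ras share no run.

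With PD153035, where both genotypes were measured in run 8 alone, Hbegf and Btc were lower in KO ras cells. Hbegf was 0.87, 2.33, 2.58, 0.93 and 2.72 in WT ras and 0.12, -0.61, -0.34, -0.30 and 0.07 in KO ras. No sample overlapped, and Hbegf was 4.28-fold lower in KO (-2.10 ± 0.55, 95% interval -3.20 to -0.99, adjusted p = 0.0342, limma). Btc was 0.90, 0.53, 2.09, 1.74 and 0.59 in WT ras and 0.16, -1.66, -0.93, -0.49 and -0.91 in KO ras, again without overlap (-1.93 ± 0.52, 95% interval -2.99 to -0.88, adjusted p = 0.0434, limma). In this comparison 1.38% of all probes passed, and 2 of 6 member probes tested.

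Both calls lie close to the threshold. With 1 sample left out the Hbegf difference stayed between -2.38 and -1.91, with adjusted p-values from 0.024 to 0.113, and passed in 3 of 10 cases, without WT ras replicates 1 or 4 or KO ras replicate 4. The Btc difference stayed between -2.20 and -1.67, with adjusted p-values from 0.0359 to 0.172, and passed in 1 of 10, without KO ras replicate 1. Ereg-a was also lower in every KO ras sample than in every WT ras sample with PD153035 (-1.93 ± 0.72, adjusted p = 0.221, limma), and Tgfa differed by -1.19 ± 0.51 (adjusted p = 0.352, limma).

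The keratinocyte marker mean was 3.12 in KO ras with PD153035 (2.08 to 4.30 over samples), 2.74 in WT ras with PD153035 (1.64 to 3.83) and 3.81 in KO ras (3.61 to 3.98). Against KO ras, 2 of the 22 keratinocyte markers fell with PD153035, Trp63 by 2.40 and Sfn by 2.45. Between genotypes with PD153035, where Hbegf and Btc differed, 0 of the 22 keratinocyte and 0 of the 13 fibroblast markers passed. The part of these shifts in the ligand values was not tested.

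**Figure D3:**
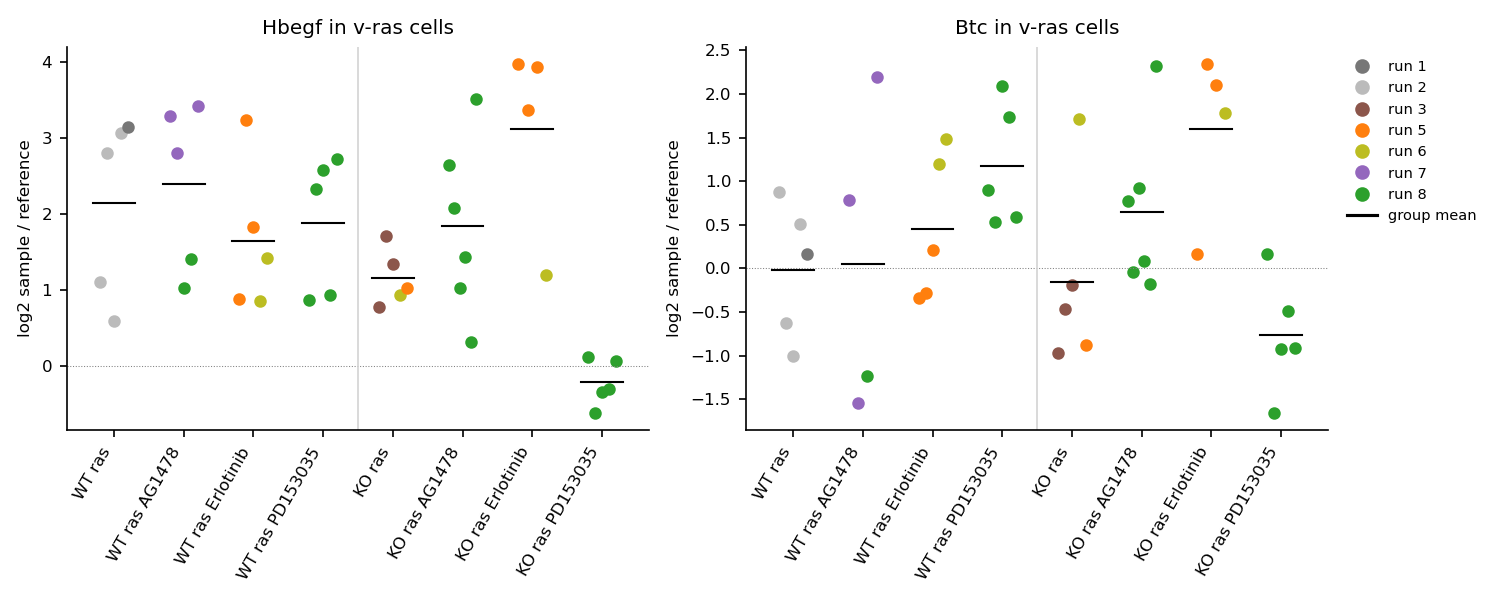
Log2 ratio of sample to reference (y axis) of Hbegf (left) and Btc (right) in v-ras cells by genotype and inhibitor (x axis), with colours for runs of experiment numbers and bars for group means. With PD153035 all points are from run 8, and the KO points lie below all WT points for both genes.

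With AG1478 and with Erlotinib the genotype comparison in ras cells gave no called member, where 2.22% and 0.967% of all probes passed. With AG1478, Tgfa was 2.43, 2.74, 2.32, 2.67 and 3.98 in WT ras. In KO ras it was 1.09, 1.02, 1.60, 1.73, 2.02 and 2.72, a difference of -1.13 ± 0.49 (adjusted p = 0.236, limma). It was -1.13 without both arrays that went against their label (adjusted p = 0.346) and -2.25 with every array turned by its label (adjusted p = 0.0151). The latter reverses the sign of both those arrays against how they correlated with the median forward-labelled array. With Erlotinib the sign of Hbegf was the other way: KO ras stood higher by 1.50 ± 0.58 (adjusted p = 0.185, limma), and 1.32 with run as a fixed block (adjusted p = 0.175).

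Averaged over all 4 settings, again a comparison added after the values were seen, KO minus WT in ras cells was -0.78 ± 0.26 for Tgfa (adjusted p = 0.0492, limma), where 8.22% of all probes passed, 4.40% as lower. This was lost in 7 of 13 other settings, with run as a random block among them (-0.65, adjusted p = 0.154), and in 27 of 40 fits without 1 sample, where the adjusted p ran from 0.019 to 0.0872. Ereg-a averaged -1.02 ± 0.36 (adjusted p = 0.0733, limma). In the same comparison 4 of 22 keratinocyte markers were higher in KO (Trp63 by 1.69, Dsp by 1.09, Itgb4 by 0.89 and Itga6 by 0.65) and Ivl was lower (-1.46). Of the other markers, melanocyte Dct was higher (1.44), and fibroblast Thy1 (-0.94) and endothelial Cldn5 (-1.51) were lower. Their part in the Tgfa value was not tested.

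The third comparison asks what 2 h of an EGFR kinase inhibitor does. In WT mock cells 0 of 21 member tests reached an unadjusted p of 0.05, the smallest adjusted p was 0.805, and 0% of all probes passed. For Tgfa the 95% intervals were -1.53 to 0.66 with AG1478, -1.57 to 0.61 with Erlotinib and -1.24 to 0.95 with PD153035.

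In WT ras cells the inhibitors likewise gave no called member, where 1.94% of all probes passed with AG1478, 3.41% with Erlotinib and 0.660% with PD153035. Tgfa differed by -0.44 ± 0.51, -0.93 ± 0.51 and -0.63 ± 0.51, and Hbegf by 0.25 ± 0.55, -0.50 ± 0.55 and -0.26 ± 0.55 in the same order. In the same samples Egr1, an early gene that ERK switches on, fell by 2.61, 2.78 and 2.79 (adjusted p = 7.17e-08, 9.37e-09 and 8.34e-09, limma). In WT mock cells, where 0% of all probes passed with an inhibitor, Egr1 did not pass either. The largest ligand difference in WT ras cells was on Ereg-a with AG1478. Its values of 1.33, -0.14, -0.32, 0.45 and 1.29 lay below every WT ras sample, and the difference was -2.35 ± 0.72 (adjusted p = 0.0692, limma). It passed without WT ras replicate 3 (-2.67, adjusted p = 0.046, limma). Ereg-b gave -0.30 ± 1.15 in that comparison. WT ras without inhibitor shares no run with WT ras given AG1478, Erlotinib or PD153035. Run and inhibitor cannot be told apart in these comparisons except through a random block.

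In KO ras cells, which lack the receptor by label, no member passed with any inhibitor against none, where 0.229% of all probes passed with AG1478, 0.0543% with Erlotinib and 4.84% with PD153035. With Erlotinib, Ereg-b was 5.07, 7.54, 7.97 and 4.87, against 0.23, 0.01, 1.72, 4.51 and 2.58 in KO ras. The groups did not overlap, and the difference was 4.52 ± 1.22 (95% interval 2.06 to 6.98, adjusted p = 0.113, limma). It moved to 3.10 with run as a fixed block (adjusted p = 0.912), and passed without KO ras replicate 4 (5.15, adjusted p = 0.0363), without KO ras replicate 5 (4.74, adjusted p = 0.047) and without Erlotinib replicate 4 (5.22, adjusted p = 0.0385).

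Hbegf with Erlotinib was 3.97, 3.37, 3.94 and 1.21, against 0.79, 1.72, 1.35, 0.94 and 1.03 in KO ras. The 1.21 came from run 6, where the KO ras sample read 0.94. The difference was 1.98 ± 0.58 (adjusted p = 0.143, limma), 1.82 with run as a fixed block (adjusted p = 0.7), and it passed without Erlotinib replicate 4 (2.53, adjusted p = 0.0295). With PD153035 every Hbegf value was below every KO ras value (-1.38 ± 0.55, adjusted p = 0.122, limma). KO ras and its PD153035 group share no run. Averaged over the 3 inhibitors, no member passed in KO ras, where 0.261% of all probes did, or in WT ras, where 2.19% did. Ereg-b had the largest average in KO ras (2.60 ± 0.95, adjusted p = 0.149, limma).

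No difference of an inhibitor effect between genotypes passed for a member. In these 3 comparisons 0.791% of all probes passed for AG1478, 0.0653% for Erlotinib and 0.0933% for PD153035. The Erlotinib effect on Hbegf in KO ras minus WT ras was 2.48 ± 0.80 (adjusted p = 0.236, limma) and that on Tgfa 1.84 ± 0.75 (adjusted p = 0.342, limma). The PD153035 effect on Btc differed by -1.79 ± 0.74 (adjusted p = 0.396, limma) and that on Hbegf by -1.12 ± 0.78 (adjusted p = 0.673, limma).

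The inhibitors were also set against each other at the same dose and time, as 9 pairs, 3 each in WT mock, WT ras and KO ras cells. Of 57 member tests 4 passed, 3 of them in KO ras. In WT mock none passed, where 0% of all probes did.

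**Figure D4:**
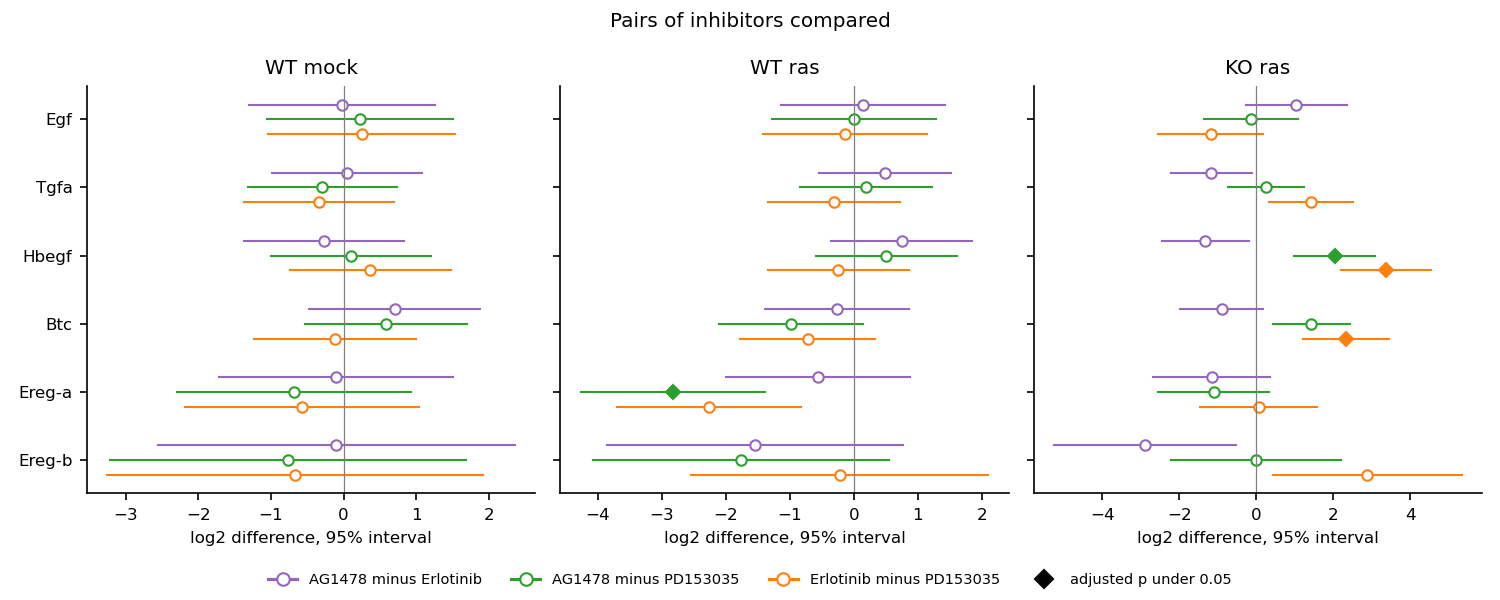
Log2 difference between inhibitors (x axis, point with 95% interval) for 6 ligand probes (y axis; Epgn could not be tested in ras cells) in WT mock, WT ras and KO ras cells, with filled diamonds for an adjusted p under 0.05. Hbegf in KO ras stands out, at 2.03 for AG1478 minus PD153035 and 3.36 for Erlotinib minus PD153035.

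In KO ras cells Hbegf was higher with Erlotinib than with PD153035 by 3.36 ± 0.58 (95% interval 2.19 to 4.53, adjusted p = 0.000262, limma), a 10.3-fold difference without overlap of samples. Btc was higher by 2.33 ± 0.56 (95% interval 1.21 to 3.45, adjusted p = 0.00765, limma), with Erlotinib values of 0.16, 2.34, 2.11 and 1.79, of which only the 0.16 lay within the range of the PD153035 values. Here 5.82% of all probes passed, and 2 of 6 member probes tested. Of 22 keratinocyte markers 3 passed as higher with Erlotinib, Trp63 among them (3.10 ± 0.76), and 1 of 13 fibroblast markers as lower, and their part was not tested. Without 1 sample the Hbegf difference stayed past the threshold in 9 of 9 cases, and Btc in 8 of 9, losing it without Erlotinib replicate 3 (2.10, adjusted p = 0.0518). Erlotinib was measured in runs 5 and 6 and PD153035 in run 8, so run and inhibitor cannot be told apart by a fixed block. With run as a random block neither passed (Hbegf 2.81, adjusted p = 0.211, and Btc 2.10, adjusted p = 0.435).

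Hbegf was also higher with AG1478 than with PD153035 in KO ras cells, both in run 8, and 0 of 22 keratinocyte markers passed in that pair. The AG1478 values were 2.64, 2.09, 1.02, 1.44, 0.32 and 3.52, all above the highest PD153035 value of 0.12, a difference of 2.03 ± 0.53 (95% interval 0.98 to 3.09, adjusted p = 0.0453, limma). In this pair 0.745% of all probes passed, and 1 of 6 member probes tested. The difference was 2.26 without both arrays that went against their label (adjusted p = 0.0551) and 1.20 with arrays turned by label (adjusted p = 0.213). Without 1 sample it stayed between 1.71 and 2.35 and passed in 2 of 11 cases, without AG1478 replicates 4 or 5. Btc differed by 1.43 ± 0.50 (adjusted p = 0.213, limma), and Tgfa by 0.24 ± 0.49 (95% interval -0.75 to 1.23).

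AG1478 and Erlotinib did not differ past the threshold for any member in KO ras, where 0.243% of all probes passed. Hbegf differed by -1.33 ± 0.56 (adjusted p = 0.326, limma), -1.10 without both arrays that went against their label, -2.16 with arrays turned by label (adjusted p = 0.0241) and -1.74 with array weights (adjusted p = 0.00732). Tgfa, at -1.18 ± 0.53, and Ereg-b, at -2.89 ± 1.18, passed only with arrays turned by label (-2.30 and -4.34, adjusted p = 0.0162 and 0.0288) or with array weights (-1.50 and -3.90, adjusted p = 0.0222 and 0.00667). Turning by label reverses the sign of both those KO ras arrays with AG1478, against how they correlated with the median forward-labelled array.

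In WT ras cells the pair that differed was AG1478 and PD153035, on Ereg-a. With AG1478 it read 1.33, -0.14, -0.32, 0.45 and 1.29, and with PD153035 2.89, 2.25, 4.92, 4.13 and 2.53, without overlap. The difference was -2.82 ± 0.72 (95% interval -4.26 to -1.38, adjusted p = 0.0339, limma), where 1.29% of all probes passed, and 1 of 6 member probes tested. It was -3.32 with run as a fixed block (adjusted p = 0.0953), and without 1 sample it stayed between -3.09 and -2.42 and passed in 2 of 10 cases, without AG1478 replicate 3 or PD153035 replicate 5. In this pair 2 of 22 keratinocyte markers and 1 of 12 leukocyte markers passed as higher with AG1478, and their part was not tested. Ereg-b gave -1.76 ± 1.15 (adjusted p = 0.434, limma). Hbegf in the same pair differed by 0.51 ± 0.55 (95% interval -0.60 to 1.61). In WT ras 0.897% of all probes passed for AG1478 minus Erlotinib and 0.176% for Erlotinib minus PD153035, with no member among them.

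Over 58 samples with a value on both Ereg probes, the correlation of Ereg-a with Ereg-b was 0.455 (dye term taken out), and these samples share groups and runs. In KO ras cells the difference of Erlotinib from no inhibitor was 4.52 ± 1.22 on Ereg-b and 0.89 ± 0.76 on Ereg-a, and whether the probes differ in this was not tested. The platform table pairs both with Ereg and gives no transcript position, so which part of the gene each reads is not known here.

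**Figure D5:**
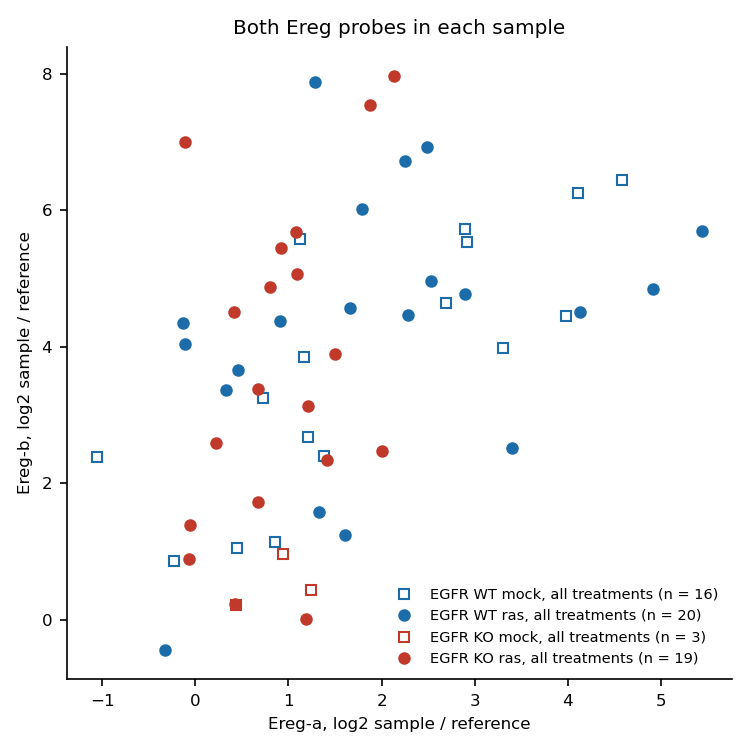
Log2 ratio of sample to reference on Ereg-a (x axis) and Ereg-b (y axis) for the 58 samples with both values; squares are mock and circles v-ras samples, blue is EGFR WT and red EGFR KO. The points scatter widely around a positive correlation of 0.455 (with the dye term taken out), and levels on the axes cannot be set against each other.

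Over samples, the strongest correlation between ligand genes, dye term taken out, was between Btc and Ereg-b (r = 0.626, n = 58, and 0.632 within groups, as deviations from group means without the dye term). Hbegf correlated with Tgfa at 0.488 (n = 62) and with Btc at 0.488 (n = 59), and within groups at 0.188 and 0.205. Epgn correlated with Hbegf at 0.510 over 33 samples, and at 0.660 within groups, above the within-group value of Btc and Ereg-b. Among genes with a value in every sample, those most like Tgfa were Il24 (r = 0.754), Dynap (0.725) and Tk1 (0.715), over 62 samples. Those most like Hbegf were Mcm5 (0.780), Tnfrsf12a (0.773) and Crabp2 (0.759), and for Btc they were Il1f8 (0.744), Muc15 (0.657) and Dynap (0.656) over 59 samples. For Egf the closest was Ropn1 (0.852), and for Epgn Pa2g4 (0.8291) over 33 samples. These values describe samples that share groups, runs and dyes. Arrays also differed in the spread of all their ratios, with an SD from 0.753 in KO mock replicate 2 to 1.75 in KO ras replicate 4. The part of this spread in the correlations, those of Egf far below the reference included, was not tested.

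The counts for the pathway lists stand beside the 1.25% of all probe tests that passed over the 35 comparisons. In them, the other EGF family ligands on the array, the neuregulins Nrg1, Nrg3 and Nrg4, passed in 1 of 99 gene tests: Nrg3 rose with PD153035 in KO ras cells by 1.64 ± 0.37 (adjusted p = 0.00798, limma). The ErbB receptors Egfr, Erbb2, Erbb3 and Erbb4 passed in 0 of 140. Among 12 ligand sheddases and their regulators, 7 of 420 tests passed (1.67%, near the 1.25% of all probe tests). Adam10, a sheddase that frees Egf and Btc, fell with PD153035 in KO ras by 1.32 ± 0.28 (adjusted p = 0.00492, limma) and was higher there with AG1478 (1.24 ± 0.27) and Erlotinib (1.13 ± 0.29) than with PD153035. Timp3, an inhibitor of sheddases, was higher in KO ras than in WT ras by 1.10 ± 0.29 (adjusted p = 0.0308, limma). WT ras and KO ras share no run. KO ras with PD153035 shares no run with KO ras or with KO ras with Erlotinib, and the part of run was not tested.

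Of 16 receptor feedback and turnover genes, 10 of 560 tests passed (1.79%), and of 8 signal adaptors 4 of 280 (1.43%), both near the 1.25% of all probe tests. Dusp4, a phosphatase that turns ERK signalling down, rose with v-ras in WT cells by 1.42 with AG1478, 2.05 with Erlotinib and 1.52 with PD153035 (adjusted p = 0.0292, 0.00108 and 0.0441, limma), and without inhibitor its difference of 0.34 ± 0.43 did not pass. With each inhibitor the WT mock and WT ras arrays share no run. Egr1 fell in those comparisons, by 2.53, 2.73 and 2.48 in the same order (adjusted p = 3.5e-08, 1.99e-09 and 4.04e-08, limma). Of 19 early genes induced by ERK, 28 of 665 tests passed (4.21%, above the 1.25% of all probe tests), 12 higher and 16 lower. Egr1 held far more of these calls than any other gene of the list, in comparisons that share groups. The share is therefore not spread evenly over the list. Egr1 was lower in KO than in WT cells by a difference of -2.39 ± 0.35 in mock and -3.30 ± 0.29 in ras cells (adjusted p = 6.62e-05 and 1.68e-11, limma). The WT and KO arrays of both comparisons share no run, and the part of run was not tested. The inhibitor effect on Egr1 in KO ras minus that in WT ras was 3.23 for AG1478, 4.20 for Erlotinib and 3.17 for PD153035 (adjusted p = 2.52e-06, 2.49e-09 and 8.11e-06, limma). The lower Egr1 of KO ras cells thus did not hold with an inhibitor. In the averaged v-ras effect in WT cells, where Tgfa and Hbegf rose and 16.2% of all probes passed, the ligand Nrg4 rose by 0.83 ± 0.29 (adjusted p = 0.0406, limma), 1 of the 3 neuregulins. There 1 of 12 sheddase genes rose (Adam9, by 0.92 ± 0.24) and 1 fell (Adam10, by 0.49 ± 0.14), and 1 of 4 receptors fell (Egfr, by 0.59 ± 0.20). Whether these counts exceed the 16.2% was not tested. Egr1 fell by 1.92 ± 0.15 in the same average (adjusted p = 3.31e-15, limma). This average was chosen after seeing the data, and its mock and ras samples share a run only in the setting without inhibitor.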

How the data were processed

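The authors deposited ratios of both dyes for each probe of 63 arrays, taken here as log2 values from their spread (SD per array 0.753 to 1.75) and, with array medians near 0, already normalized before deposit. Neither the log base nor the normalization is given in the sources used here, and all log2 differences depend on that reading. Arrays held 24860 to 28047 values, and the number of arrays limits the precision. Per the labels' protocols, 10 µg of Trizol-extracted RNA was labelled indirectly, and 12 arrays carry reversed dyes. Background correction and spot filters are not given in the sources used here.

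Ratios were turned to sample over reference, and both WT mock repeat 1 arrays, from runs 1 and 2, were averaged and counted in run 1. All 13 groups were fitted with a dye term in limma 3.58.1 (R 4.3.3, statmod 1.5.0; figures in Python 3.11.15 with matplotlib 3.10.9). A probe needed values on at least 60% of arrays in each group of a comparison, p-values were adjusted by Benjamini-Hochberg within that comparison, and the threshold was 0.05; the scripts were tested on simulated data. The series' design names biological replicates, and nothing says that they were separate cultures, so p-values reflect only how far these samples spread, and that spread may be technical. Runs were parted where experiment numbers jump by over 100, and the consensus correlation within runs was 0.260. Members, lists and comparisons were chosen with earlier results of these data known. Genes named beyond the members are, for each ligand probe, those with the highest correlations, and genes of the lists that passed. Alternatives tried were the dye term, array direction, normalization, filters, array weights, runs, replicate numbers and samples left out. Deviations of same-numbered samples had a mean correlation of 0.0350 over 344 pairs, 127 over 0.1. For samples with different numbers it was -0.0080 over 1427 pairs, 440 over 0.1. Both means were small.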

Additional observations from a re-analysis of the deposited data

Results flagged for a closer look

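Of 77 sets of ligand values in 1 group, 4 held a sample far from the others by Dixon's test at the 95% level, and chance flags about 1 set in 20. Egf in KO ras with AG1478 replicate 4, an array whose direction went against its label, was -2.62, against -5.18 to -4.26 in the others. Hbegf in WT mock replicate 5 was -0.34, against 1.64 to 2.04. Tgfa in WT ras with AG1478 replicate 5 was 3.98, against 2.32 to 2.74. Ereg-b in WT ras with PD153035 replicate 2 was 6.72, against 4.51 to 4.96.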

How the results depend on the processing

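Over 47 named ligand values, 1256 refits kept direction and side of the threshold in 1122 cases, lost a call in 93, gained 1 in 41 and turned no sign. Most of the 47 values were not called in the main fit and could not lose a call, so 1256 is not the base for the 93. Hbegf for AG1478 minus PD153035 in KO ras lost its call in 9 of 11 fits without 1 sample and in 6 of 14 other settings. For Erlotinib minus PD153035 there, Hbegf lost it in 0 of 9 and 1 of 13. The averaged v-ras effect on Tgfa passed in all 13 other settings and 39 fits without 1 sample; that on Hbegf did so except with run as a random block. Counts of ligand probes past the threshold that moved are as follows. KO minus WT in mock went from 0 to 1 with repeat 1 arrays kept apart or quantile normalization and 2 with array weights. Array weights also gave 1 for KO minus WT in ras, 5 for Erlotinib in KO ras, 1 for PD153035 in KO ras, 1 for the mean of 3 inhibitors in KO ras, 2 for KO minus WT with Erlotinib, 5 for the Erlotinib effect in KO minus WT and 4 for AG1478 minus Erlotinib in KO ras, all from 0. Forward arrays alone gave 1 for Erlotinib in KO ras and for that mean, and 2 for v-ras with AG1478 in WT. PD153035 in WT ras gave 1 with no filter, and in KO ras 1 with only the groups compared.

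Turning arrays by label gave 1 for KO minus WT with AG1478 and 4 for AG1478 minus Erlotinib in KO ras. That setting reverses both KO ras arrays with AG1478 that went against their label. KO minus WT with PD153035, at 2, fell to 1 with no dye term or with probes valued on every array and to 0 with forward arrays alone or arrays turned by label. V-ras with AG1478 in WT, at 1, fell to 0 with arrays turned by label, only the groups compared or run as a random block. AG1478 minus PD153035 in WT ras, at 1, fell to 0 with forward arrays alone, arrays turned by label, probes valued on every array, only the groups compared, or run as a random or fixed block. The same pair in KO ras, at 1, fell to 0 with no dye term, forward arrays alone, arrays turned by label, without both arrays against their label, only the groups compared and the replicate block, and rose to 2 with array weights. Erlotinib minus PD153035 in KO ras, at 2, became 1 with probes valued on every array, 4 with only the groups compared, 0 with run as a random block and 5 with array weights. The averaged v-ras effect, at 2, became 1 with the random block. The averaged KO minus WT, at 1, became 0 with no dye term, forward arrays alone, without both arrays against their label, median centring, the random block and array weights. Both averages were chosen after seeing the data. The cause was not tested.

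Without 1 sample the counts ran from 0 to 2 for Erlotinib in KO ras and for v-ras with AG1478 in WT, from 0 to 1 for AG1478 in WT ras, KO minus WT with PD153035, AG1478 minus PD153035 in WT ras and in KO ras, and the averaged KO minus WT, and from 1 to 2 for Erlotinib minus PD153035 in KO ras. Replicate numbers were not taken to pair the samples. With the replicate block Hbegf for AG1478 minus PD153035 in KO ras was 1.71 (adjusted p = 0.197, limma), the only count of ligand probes that the block changed. Signal over background is not in the values used here, so which dim probes lack a level is unknown.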
